A study of Mus musculus with 2 samples.

Results

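A set of 9 transcription factors that build and maintain myeloid cells were followed across the cell classes of the embryonic mouse brain: Spi1, Irf8, Runx1, Cebpa, Cebpb, Maf, Mef2a, Mef2c and Sall1. They were chosen by symbol, and all 9 were found among the 31053 features of both matrices. They were measured in 2 libraries of single cells captured in droplets. The cells had been sorted for Cd11b (found on myeloid cells) and Cd45 (found on most blood cells) from the hypothalamic and thalamic region of outbred CD1 embryos at E15.5. The control library pooled tissue of 10 embryos from 1 wild-type dam, and the stressed library pooled tissue of 5 embryos from 1 dam that had been kept at 4 °C for 30 min a day for 5 days from E11.5 to E15.5. The labels name no transgenic strain. Each condition was therefore 1 litter in 1 library, so differences between the conditions have no replicate check and no p-value, and litter, library and treatment cannot be told apart. The pools also differed in sex by their sex-linked transcripts, as given below.

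Spi1 encodes PU.1, the ETS-family factor without which macrophages and microglia do not form, and Irf8 and Runx1 act with it in early myeloid progenitors. Cebpa and Cebpb belong to the C/EBP family, which drives monocyte and granulocyte differentiation. Maf and the MEF2 factors act in mature macrophages, and MEF2 factors act in neurons as well. Sall1 is a zinc finger factor that is known for setting microglia apart from other macrophages and that is also used by neural progenitors.

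The control library held 1156 barcodes with 2833015 UMIs (unique molecules), and the stressed library 1467 barcodes with 6582188 UMIs; 13 barcodes were shared between them. Cells were assigned to a class where at least 3 of 10 markers of that class had a UMI and no other class came within 2 markers, and none of the 9 factors was a marker. The gate gave 622 control and 1105 stressed microglia-like cells, called microglia here, 77 and 24 border-associated macrophages (the macrophages of the meninges and vessels), 15 and 14 monocytes and granulocytes, and 200 and 153 neural cells. It left 13.8% and 7.11% of the kept cells unassigned. Median UMIs were 2180.5 and 3981 in gated microglia, against 1489 and 4240 in unassigned cells. The unassigned cells were thus shallower than the microglia in the control library only. Gated microglia carried a median of 5 and 7 microglia markers against 1 of the border-associated list and 0 of the monocyte list. Of the microglia, 84 and 61 cells lay at the edge of the gate. The cell type in the labels, microglia, thus held for 58.2% and 78.5% of the kept cells by this gate.

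Levels are CPM: all UMIs of a gene in a class and library, per 1000000 UMIs of that class, with 95% Poisson intervals that cover counting error only. The class sums held 1600863 and 5008808 UMIs for microglia but 27231 and 60036 UMIs for monocytes and granulocytes, so the same level is far less precise in the latter. Classes were compared with edgeR's quasi-likelihood test on the 8 sums of 4 classes in 2 libraries, with Benjamini-Hochberg adjustment over the 5535 genes tested. The library was kept as a term of the model. The 2 libraries stand as replicates of a class here, so these p-values rest on 2 pools of embryos.

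The sequence before the start of a gene is where factors of this kind bind, and these factors are known to regulate each other. The 250 bases upstream of the start were read for the 7 factors in the RefSeq promoter table of GRCm38.p6: Irf8, Runx1, Cebpa, Cebpb, Sall1, Mef2a and Mef2c. On both strands they were searched for the ETS core GAGGAA that PU.1 prefers, the ETS-IRF composite (GGAA, then 2 bases of any kind, then GAAA), the C/EBP site TTGCNNAA, the RUNX site TGTGGT, the MEF2 site (CTA, then 4 bases of any kind, then TAG) and the MAF half-site TGCTGA, and overlapping matches of different motifs were all counted. Only the GAGGAA core was found, 2 times upstream of Mef2a and 1 time upstream of Mef2c, beside 23.3% of 32851 promoters that hold it in windows of the same length. The other 5 windows held none of the 6 motifs, which says only that these letters are not in them. Windows are printed for the MEF2 pair, whose members differed in how sharply they separated the cell classes, for Sall1, which was highest in microglia, and for Cebpb, which ran the other way. They are chr7:67372859-67373108 (minus strand) for Mef2a, chr13:83503784-83504033 (plus strand) for Mef2c, chr8:89044163-89044412 (minus strand) for Sall1 and chr2:167688665-167688914 (plus strand) for Cebpb, all just outside the annotated gene, with the GAGGAA core in capitals.
Mef2a: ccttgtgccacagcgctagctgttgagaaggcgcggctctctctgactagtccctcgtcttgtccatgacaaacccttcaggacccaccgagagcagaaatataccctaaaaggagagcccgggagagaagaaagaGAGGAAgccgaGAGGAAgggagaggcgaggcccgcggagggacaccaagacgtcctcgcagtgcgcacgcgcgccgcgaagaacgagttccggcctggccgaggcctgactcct
Mef2c: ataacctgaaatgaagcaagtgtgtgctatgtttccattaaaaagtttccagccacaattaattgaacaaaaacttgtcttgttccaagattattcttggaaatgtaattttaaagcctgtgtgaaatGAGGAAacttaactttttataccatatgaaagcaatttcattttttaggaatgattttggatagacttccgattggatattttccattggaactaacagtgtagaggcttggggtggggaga
Sall1: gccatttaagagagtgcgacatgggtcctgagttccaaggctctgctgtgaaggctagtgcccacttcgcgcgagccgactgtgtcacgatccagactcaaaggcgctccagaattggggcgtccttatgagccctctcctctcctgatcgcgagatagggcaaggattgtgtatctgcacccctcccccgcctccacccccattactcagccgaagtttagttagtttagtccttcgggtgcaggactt
Cebpb: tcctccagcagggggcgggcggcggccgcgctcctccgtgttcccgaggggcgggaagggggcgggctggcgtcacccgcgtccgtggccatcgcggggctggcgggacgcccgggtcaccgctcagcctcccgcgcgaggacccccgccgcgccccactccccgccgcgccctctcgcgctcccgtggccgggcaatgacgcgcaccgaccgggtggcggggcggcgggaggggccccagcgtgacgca
The 4 windows differed widely in base composition: GC content was 33.6% for Mef2c, 56.4% for Sall1, 61.6% for Mef2a and 81.6% for Cebpb, against a median of 52.4% over all promoters in the table.

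Spi1, the pan-myeloid factor, was present at similar levels in all 3 myeloid classes. Its level was 426 CPM in control and 477 CPM in stressed microglia, 324 and 522 CPM in border-associated macrophages, and 514 and 400 CPM in monocytes and granulocytes. In neural cells it was 4.61 and 6.14 CPM, from 2 and 4 UMIs. The myeloid classes overlapped across libraries and changed order between them, while neural cells lay far below in both. Microglia and border-associated macrophages differed by 0.08 on the log2 scale (edgeR adjusted p = 0.82), and microglia and monocytes by 0.19 (edgeR adjusted p = 0.757). The gene most like Spi1 over the 8 class levels was Tyrobp, which encodes a signalling adaptor of myeloid receptors, with r = 0.996, followed by Asah1 and Arpc1b (r = 0.995 and 0.993); these 8 points share 2 libraries and the contrast of myeloid with neural cells.

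Irf8, the interferon regulatory factor that partners PU.1, stood at 171 and 160 CPM in microglia and at 84.5 and 89.4 CPM in border-associated macrophages. Both microglial values lay above both values of border-associated macrophages, with 25 and 12 UMIs behind the latter. The difference of 0.91 on the log2 scale did not pass the test (edgeR adjusted p = 0.186), and it did with only these classes in the fit (edgeR adjusted p = 0.015). In monocytes and granulocytes the libraries went opposite ways: 514 CPM from 14 UMIs in the control and 16.7 CPM from 1 UMI in the stressed library. Of the 14 control UMIs, 9 came from 1 cell, and 10 from 2 of the 6 cells with more Ly6c2 and Ccr2 UMIs (monocyte genes) than S100a8 and S100a9 UMIs (granulocyte genes). In neural cells Irf8 had 0 UMIs in the control, which allows up to 6.91 CPM, and 3 UMIs in stressed cells. The genes with the most similar levels were Ptprj, Atp6ap1 and Rnf13 (r = 0.962, 0.959 and 0.958).

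Runx1, a factor of blood stem cells and early microglial progenitors, reached 92.5 and 89.6 CPM in microglia, and 54.1 and 67.1 CPM in border-associated macrophages. The microglial values were the higher ones in both libraries, but the counting intervals overlapped and the difference of 0.55 (log2) did not pass (edgeR adjusted p = 0.366). Monocytes and granulocytes had 0 UMIs in the control library, which allows up to 110 CPM, and 5 UMIs or 83.3 CPM in the stressed one. Runx1 could therefore not be ordered between microglia and monocytes at this depth. Its level followed that of Cd86, a costimulatory surface protein, most closely (r = 0.996 over the 8 sums), then Casp8 (r = 0.994) and A630001G21Rik (r = 0.991).

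The C/EBP pair split under this gate. Cebpb was higher in monocytes and granulocytes than in microglia, and border-associated macrophages lay between them, whereas Cebpa was found in microglia and border-associated macrophages and had no UMI in the 29 gated monocytes and granulocytes. The cluster led by S100a9 and Ngp held these 29 among its 58 cells, and the gate left 28 of the 58 unassigned. Cebpb measured 260 and 252 CPM in microglia, 365 and 514 CPM in border-associated macrophages and 1432 and 1616 CPM in monocytes and granulocytes. The order was the same in both libraries, and neighbouring classes had intervals that did not overlap. Cebpb was 1.76-fold lower in microglia than in border-associated macrophages (log2 difference -0.81, edgeR adjusted p = 0.00839) and 5.58-fold lower than in monocytes and granulocytes (log2 difference -2.48, edgeR adjusted p = 1.24e-06). Border-associated macrophages were 3.17-fold below monocytes and granulocytes (edgeR adjusted p = 0.000313). Within the latter class, Cebpb was at 1497 and 1572 CPM in cells leaning to S100a8 and S100a9 and at 1350 and 1658 CPM in cells leaning to Ly6c2 and Ccr2, so both kinds of cell carried it. The genes that tracked it most closely were Ctsc, a protease that activates granule enzymes (r = 0.996), Lst1 (r = 0.995) and Ctsh (r = 0.992).

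Cebpa measured 121 and 105 CPM in microglia and 64.2 and 74.5 CPM in border-associated macrophages, a difference of 0.69 (log2) that did not pass (edgeR adjusted p = 0.13). Its 0 UMIs in monocytes and granulocytes allow up to 110 CPM in the control and 50.0 CPM in the stressed library. With 3 counts in place of 0, microglia were 1.10-fold and 2.11-fold higher (edgeR adjusted p = 0.0067 on the observed counts of both libraries). The counting intervals began at -0.17 and 0.77 on the log2 scale, so the control library, with 15 cells, did not exclude equality. Border-associated macrophages did not pass against monocytes and granulocytes (edgeR adjusted p = 0.0518). Their control level of 64.2 CPM lay below the 110 CPM that 0 UMIs allow. Neural cells had 1 UMI of Cebpa in each library. The closest genes over the 8 sums were Uap1l1, Man1c1 and Tfpi (r = 0.993, 0.991 and 0.991).

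**Figure D1:**
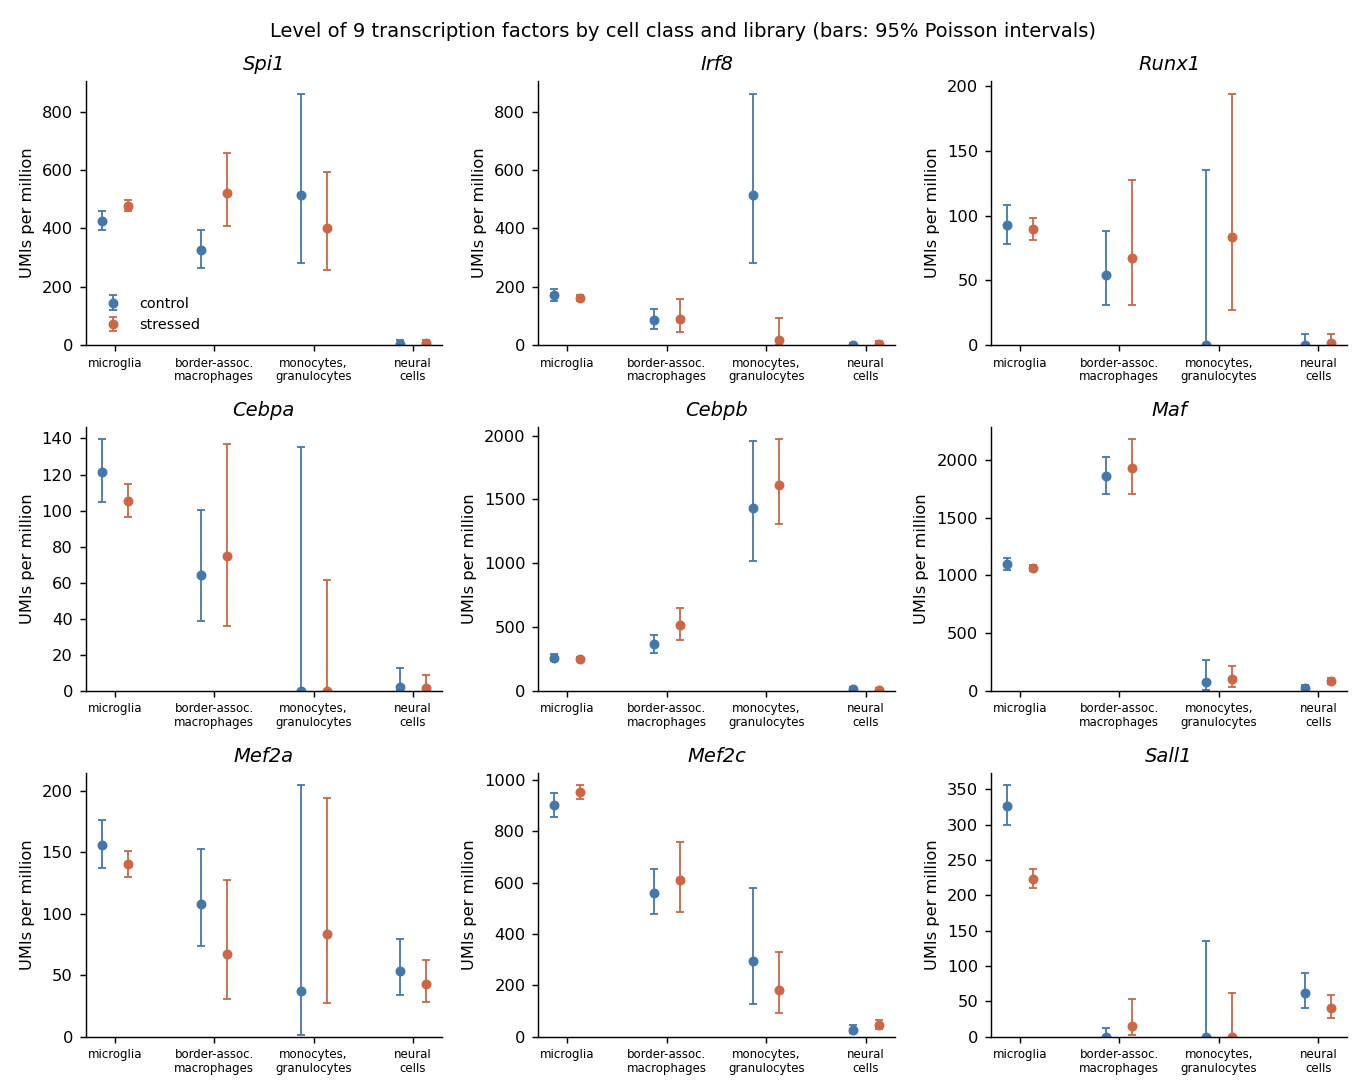
Level of each factor in CPM (y axis, linear, from 0) in 4 cell classes (x axis) of the control and stressed libraries. Points are class sums and bars are 95% Poisson intervals, which are wide for monocytes and granulocytes (15 and 14 cells). Sall1 is high in microglia alone among the myeloid classes, Cebpb is highest in monocytes and granulocytes and Maf in border-associated macrophages, in both libraries.

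Maf, which restrains self-renewal in differentiated macrophages, was highest in border-associated macrophages. It measured 1862 and 1930 CPM there, 1096 and 1066 CPM in microglia and 73.4 and 99.9 CPM in monocytes and granulocytes, the last from 2 and 6 UMIs. The intervals of these 3 classes did not overlap in either library. Microglia were 1.86-fold below border-associated macrophages (log2 difference -0.89, edgeR adjusted p = 0.00194) and 12.8-fold above monocytes and granulocytes (edgeR adjusted p = 9.04e-05), and border-associated macrophages were 23.7-fold above the latter (edgeR adjusted p = 8.88e-06). The genes most like it were Ltc4s, the leukotriene C4 synthase (r = 0.986), Selenop (r = 0.984) and Clta (r = 0.982).

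Of the MEF2 factors, Mef2c was highest in microglia and no difference of Mef2a between the myeloid classes passed the test. Mef2c measured 902 and 952 CPM in microglia, 561 and 611 CPM in border-associated macrophages, and 294 and 183 CPM in monocytes and granulocytes, in the same order in both libraries. It was higher in microglia than in border-associated macrophages (log2 difference 0.58, edgeR adjusted p = 0.0227) and was 4.61-fold higher than in monocytes and granulocytes (edgeR adjusted p = 0.000204). It was also 3.07-fold higher in border-associated macrophages than in monocytes and granulocytes (edgeR adjusted p = 0.0117). Its closest genes were Rgs10 (r = 0.996), Csf1r (r = 0.996), the receptor on which microglia depend for survival, and Itm2b (r = 0.99). Mef2a was lower in count and flatter: 156 and 140 CPM in microglia, 108 and 67.1 CPM in border-associated macrophages, and 36.7 and 83.3 CPM in monocytes and granulocytes, from 1 and 5 UMIs. Neither difference from microglia passed (edgeR adjusted p = 0.166 and 0.209). Its closest genes, Ptgs1, Atf3 and Slc36a1, were less alike (r = 0.976, 0.968 and 0.965).

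Sall1 had the largest difference of the 9 between microglia and border-associated macrophages. It measured 327 CPM in control microglia (523 UMIs) and 224 CPM in stressed microglia (1121 UMIs). Border-associated macrophages had 0 UMIs in the control, which allows up to 10.1 CPM, and 2 UMIs in the stressed library, 14.9 CPM. With 3 counts in place of 0, control microglia were 32.2-fold higher, and the counting interval began at 4.71 on the log2 scale. Stressed microglia were higher by 3.91 on the log2 scale (interval 2.05 to 6.96), and the class difference passed the test (edgeR adjusted p = 8.85e-06). Monocytes and granulocytes had 0 UMIs in both libraries. Taken at 3 counts, they lay 2.97-fold and 4.48-fold below microglia, with counting intervals that began at 1.26 and 1.86 on the log2 scale (edgeR adjusted p = 0.00294). Nav3, Sparc and Serpine2 had the levels most like Sall1 (r = 0.963, 0.947 and 0.939). Sparc, which encodes a secreted matrix glycoprotein, stood at 997 and 882 CPM in microglia against 40.5 and 37.3 CPM in border-associated macrophages.

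The size of the Sall1 difference from border-associated macrophages turned on how the cells were drawn. The Leiden cluster led by Lyve1 and Pf4 held 72 control and 19 stressed gated border-associated macrophages with 0 and 2 Sall1 UMIs. It also held 8 stressed cells that the gate left unassigned, with medians of 6.5 microglia markers and 5.5 border-associated markers and 9286.5 UMIs, and 4 stressed cells gated as microglia. Those 8 and 4 cells carried 10 and 4 Sall1 UMIs. In the control the cluster held 5 unassigned cells with 2 Sall1 UMIs and 1 microglial cell with 0. None of these cells was among those with the highest doublet scores. With clusters in place of the gate Sall1 still passed (log2 difference 2.88, edgeR adjusted p = 0.0135).

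Counted over the set, 4 of the 9 factors differed between microglia and border-associated macrophages, 2 in each direction, where 10.7% of all genes tested did (4.81% higher and 5.89% lower in microglia). Between microglia and monocytes and granulocytes 5 of 9 differed (Sall1, Cebpa, Maf and Mef2c higher in microglia, Cebpb lower), against 8.8% of all genes (4.44% higher, 4.35% lower). Between border-associated macrophages and monocytes 3 of 9 differed (Maf and Mef2c higher, Cebpb lower), against 5.29% of all genes (2.93% higher, 2.37% lower). These calls depended on the cell assignment and the spread: with clusters in place of the gate the counts were 1, 1 and 2 (against 4.63%, 8.92% and 5.16% of all genes), and with only the compared classes in the fit they were 5, 0 and 0 (against 18.5%, 0.503% and 0% of all genes). In the cluster-based fit Maf and Mef2c no longer differed between microglia and border-associated macrophages (log2 differences -0.88 and 0.47, edgeR adjusted p = 0.252 and 0.586), nor did Cebpb (log2 difference -0.68, edgeR adjusted p = 0.163). Against monocytes and granulocytes, the microglial difference in that fit shrank to 1.65 for Maf and 1.07 for Mef2c on the log2 scale (edgeR adjusted p = 0.0526 and 0.183), from 3.68 and 2.20 with the gate. From border-associated macrophages to monocytes and granulocytes it shrank to 2.54 for Maf and 0.61 for Mef2c (edgeR adjusted p = 0.0113 and 0.537), from 4.57 and 1.62. In the cluster-based fit 0 factors were higher in microglia than in monocytes and granulocytes, so Cebpa and Sall1 did not pass there either. Over the 8 alternatives their smallest log2 differences in that comparison were 1.55 and 2.32, and each passed in 6 of the 8.

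**Figure D2:**
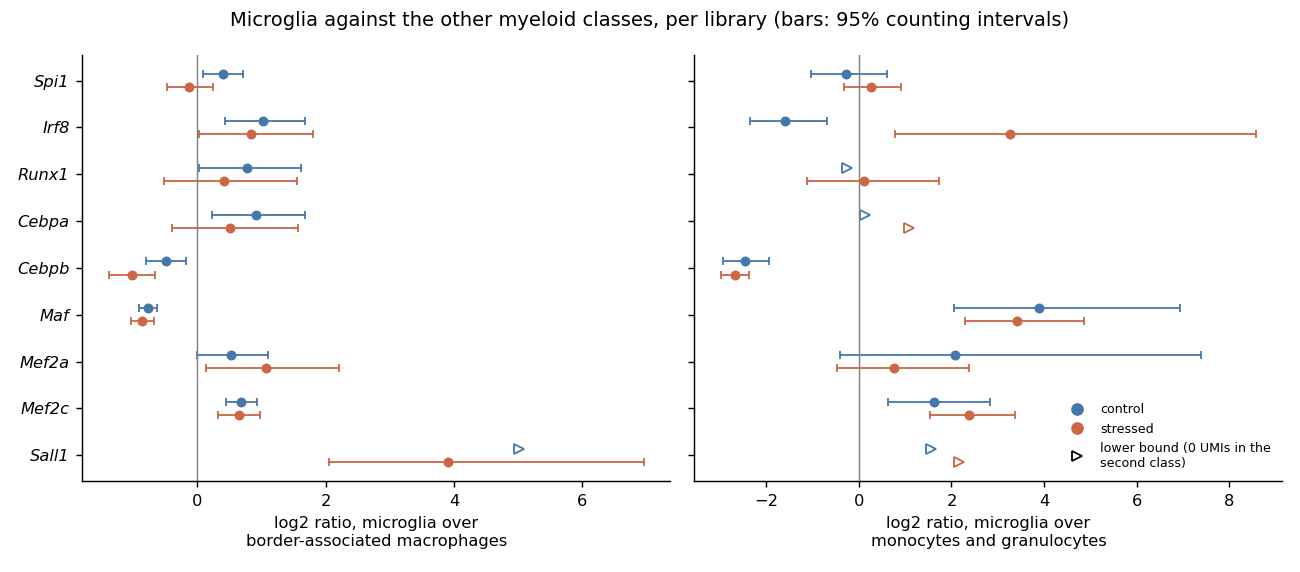
Log2 ratio of the level in microglia over border-associated macrophages (left) and over monocytes and granulocytes (right), x axis, for each factor, y axis, in the control and stressed libraries. Bars are 95% counting intervals. Open triangles, marked as lower bounds, are ratios with 3 counts in place of 0 UMIs in the second class, and counting error in microglia is not included. Cebpb and Maf fall left of 0 on the left, and the Irf8 libraries fall on opposite sides of 0 on the right (-1.59 and 3.27).

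Neural cells served as the background for free RNA, and all 9 factors were higher in microglia than in them, where 32.0% of all genes tested were higher. The 10 microglia markers reached in neural cells a median of 0.418% (control) and 1.75% (stressed) of their microglial level, with maxima of 1.54% and 5.43%. The gate was drawn with these same markers and without the 9 factors. It therefore holds the markers down in neural cells, and lying above them is a weak mark of expression there. Spi1 was at 1.08% and 1.29%, and like Irf8 and Runx1 it was no higher than the highest marker in either library. Cebpa (1.9% and 1.46%, from 1 UMI each), Cebpb (5.32% and 3.65%) and Mef2c (2.81% and 4.67%) lay above the highest marker in the control library and below it in the stressed one. That stressed marker was Slc2a5, from 2 neural UMIs. The next was P2ry13 at 3.20%, from 3 UMIs, and stressed Cebpb and Mef2c lay above that. Maf lay above the highest marker in both libraries, at 2.52% and 7.77%. Of 4 abundant macrophage genes that are no markers, Apoe was the highest, at 2.72% and 3.76%. Control Maf, control Cebpa and stressed Cebpb lay below Apoe. Sall1 and Mef2a were furthest above in both libraries: Sall1 reached 19.0% and 17.8% of its microglial level, and Mef2a 34.1% and 30.6%. Mef2a measured 53.0 and 43.0 CPM in neural cells, close in both libraries, and differed from microglia by 1.85 on the log2 scale (edgeR adjusted p = 2.85e-06).

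Sall1 in neural cells lay mostly in cells with more progenitor markers (Sox2, Fabp7, Hes5, Nes) than neuron markers. It measured 108 CPM in 52 such control cells and 56.5 CPM in 54 such stressed cells, against 27.1 and 21.3 CPM in the 133 and 91 cells with more neuron markers. Over all neural cells it was at 62.2 and 39.9 CPM, 5.25-fold and 5.61-fold below microglia (log2 difference in the fit 2.65, edgeR adjusted p = 2.58e-07). Maf showed the opposite pattern: 45.2 and 140 CPM in cells with more neuron markers, 11.3 and 22.6 CPM in cells with more progenitor markers. The stressed value came from 46 UMIs in 16 of 91 cells, with 11 UMIs in 1 cell, so few cells set it. The intervals of the 2 kinds of neural cell overlapped for stressed Sall1 (31.6 to 93.2 and 8.57 to 43.9 CPM) and for control Maf (1.37 to 40.9 and 21.7 to 83.1 CPM). They did not overlap for control Sall1 and stressed Maf. Of the factors with at least 50 CPM in neural cells, 3 in all, Maf was past 1.5-fold higher and Sall1 past 1.5-fold lower in the stressed library, where 16.2% of all genes measured in neural cells were past 1.5-fold. The neural Sall1 levels rested on 27 and 26 UMIs, and their intervals overlapped (41.0 to 90.5 and 26.1 to 58.5 CPM). Those of Maf, from 12 and 54 UMIs, did not (14.3 to 48.3 and 62.2 to 108 CPM).

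**Figure D3:**
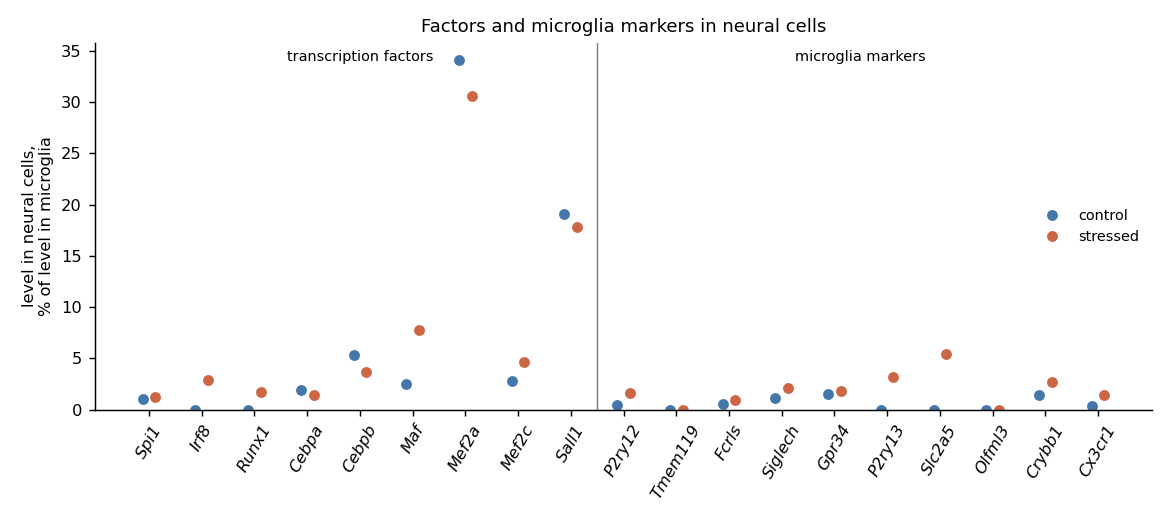
Level in neural cells as a percentage of the level in microglia (y axis, linear) for the 9 factors (left of the line) and the 10 microglia markers (right), in the control and stressed libraries. Mef2a (34.1% and 30.6%) and Sall1 (19.0% and 17.8%) lie furthest above the markers, whose highest values are 1.54% and 5.43%, and Maf (2.52% and 7.77%) also lies above them in both libraries. The markers, unlike the factors, were used to draw the gate.

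The share of cells with a UMI of each factor was compared after thinning every cell to 1200 UMIs, which left out 62 control and 4 stressed microglia. Maf was detected in 72.5% of control and 67.7% of stressed microglia, Mef2c in 65.2% and 64.9%, Spi1 in 42.7% and 42.9%, and Sall1 in 31.8% and 25.2%. Without thinning the Sall1 shares were 51.6% and 57.9%, so the order of the libraries turned with depth. In thinned neural cells Spi1 was found in 1.32% and 1.45% of cells, the background for its share. Sall1 was found in 5.3% and 2.9%, which include the progenitors described above. A thinned microglial cell showed a median of 3 of the 9 factors in both libraries, and 62.5% and 57.6% of the cells showed at least 3. A neural cell showed a median of 0.

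The second question of the design was whether maternal cold stress changed these factors in microglia. None of the 9 moved past 1.5-fold between the libraries, where 4.85% of the 2681 genes with at least 50 CPM did. The median log2 ratio of stressed over control was -0.04 for the 9 factors and -0.06 for all genes measured. Spi1 had a log2 ratio of 0.16 (interval 0.04 to 0.29), Mef2c 0.08, Maf -0.04, Cebpb -0.04, Runx1 -0.04, Irf8 -0.09, Mef2a -0.15 and Cebpa -0.20. For 7 of these 8, all but Spi1, the counting interval included 0. That split depended on the setting: of the 10 alternatives with an interval, the Mef2c interval excluded 0 in 4 (0.10 to 0.28 with TMM factors), and the Spi1 interval included 0 in thinned cells (-0.12 to 0.27). Scaling by edgeR's TMM factors raised every ratio by 0.11, and by DESeq2's size factors likewise, which turned the sign of the ratios nearest 0 (Irf8, Runx1, Cebpb and Maf).

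Sall1 had the largest ratio: the level in control microglia was 327 CPM and that in stressed microglia 224 CPM, a log2 ratio of -0.55 (interval -0.70 to -0.39), or 1.46-fold lower. It was the only factor of the 9 whose ratio passed 0.32 on the log2 scale in either direction, a size that 21.7% of all genes measured reached, and 111 of the 2681 genes had a ratio at or below that of Sall1. No cell dominated the sums, since the 7 control cells with most Sall1 UMIs held 5.93% of them and the 12 such stressed cells 6.07%. The ratio was negative in all 11 alternative ways of computing it, between -0.60 with a stricter gate and -0.43 with a stricter cell filter, and relative to the TMM shift it was -0.43. The libraries also differed in other measures of the same microglia: the mitochondrial share had medians of 2.32% and 3.57%, dissociation genes summed to 1069 and 1186 CPM, 23.0% and 30.1% of cells passed a gate on cycling genes, and Y-linked genes summed to 102 and 0.20 CPM. Xist stood at 569 and 1850 CPM, and 211 control and 1039 stressed microglia had Xist and no Y-linked UMI. The sex of the pooled embryos thus differed between the libraries. In cells with Xist and no Y-linked UMI the Sall1 ratio was -0.58, in non-cycling cells -0.49 and in the cells with fewer dissociation transcripts -0.54. The last were the 311 and 553 cells at or below the median share of their own library, so the libraries were not matched in that share. The mitochondrial share was not separately tested beyond the stricter filter.

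**Figure D4:**
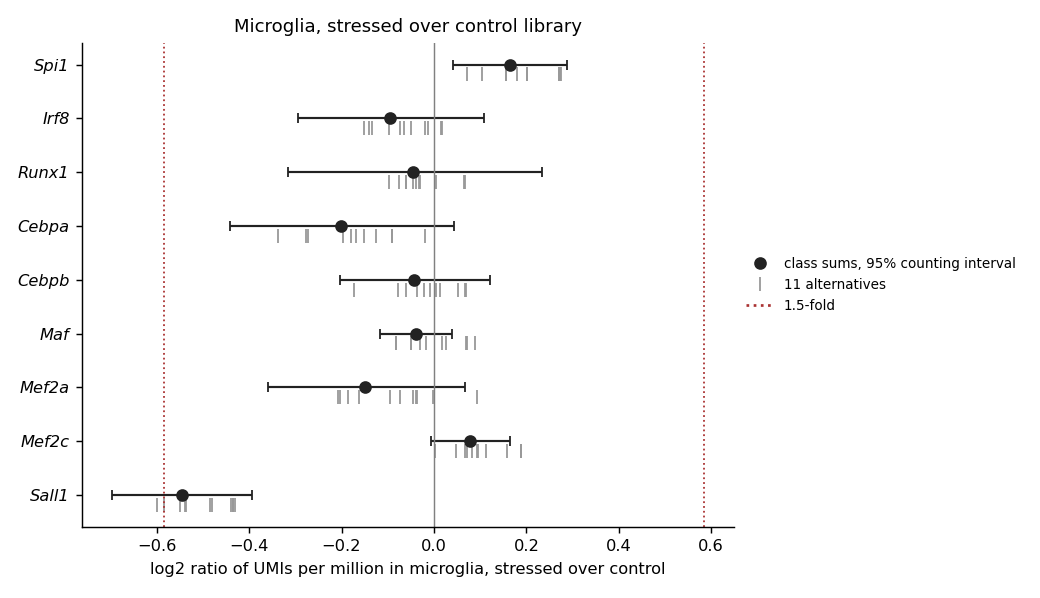
Log2 ratio of the microglial level, stressed over control (x axis), for each factor (y axis). Black points are class sums with 95% counting intervals, grey ticks are the 11 alternatives, and dotted lines mark 1.5-fold. Sall1 (-0.55) lies apart from the other 8 factors (-0.20 to 0.16), and 1 tick, the stricter gate at -0.60, passes the line.

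The 9 factors differed in how evenly they were spread within microglia. Clusters were built without them, and the gated microglia fell mainly into clusters led by Slc2a5 and Tmem119 (252 and 418 cells), by Csf1 and Ccl4 (201 and 324), by Mki67 and Bub1 (127 and 264) and by Lgals3 and Gpnmb (31 and 72). The leading genes were taken over all cells of a cluster, gated as microglia or not. In gated stressed microglia Gpnmb was at 36.4 CPM in the Lgals3 and Gpnmb cluster and at 49.5 CPM in the Csf1 and Ccl4 cluster, while Lgals3 was at 142 and 33.0 CPM. Slc2a5 and Tmem119 are markers of homeostatic microglia, and Csf1, Ccl4 and Lgals3 mark activated or developing states. The first cluster was the shallowest, at 1760 and 2984 UMIs per cell against 3027 and 5428 in the Csf1 cluster. As these clusters were drawn from the same cells, their levels are a description without a test.

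Sall1 was at 480 and 298 CPM in the Slc2a5 and Tmem119 cluster and at 228 and 180 CPM in the Csf1 and Ccl4 cluster, a fold of 2.10 and 1.65. Mef2a was at 225 and 186 CPM in the first against 104 and 120 CPM in the second, and Maf at 1495 and 1311 CPM against 986 and 1028 CPM. Mef2c had the same direction with a smaller difference, 0.31 and 0.32 on the log2 scale. Cebpa ran the other way, at 83.4 and 81.8 CPM in the Slc2a5 and Tmem119 cluster and 159 and 143 CPM in the Csf1 and Ccl4 cluster, 1.91-fold and 1.75-fold lower in the former. For these 5 factors the counting interval excluded 0 in both libraries, and for Spi1, Irf8, Runx1 and Cebpb it did not in at least 1 of them. The homeostatic receptor P2ry12 was at 1601 and 1420 CPM in the first cluster and 671 and 585 CPM in the second, and Spp1, a secreted protein of developing microglia, at 266 and 180 CPM against 8208 and 4100 CPM.

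The lower Sall1 of the stressed library appeared in all 4 clusters, with log2 ratios of -0.69 in the Slc2a5 and Tmem119 cluster, -0.59 in the Mki67 and Bub1 cluster, -0.44 in the Lgals3 and Gpnmb cluster and -0.34 in the Csf1 and Ccl4 cluster. Only in the Lgals3 and Gpnmb cluster, with 31 control cells, did the interval include 0 (-1.15 to 0.32). Spi1 was higher in the stressed library in all 4 clusters, by 0.04 to 0.36, and the interval included 0 in all but the Csf1 and Ccl4 cluster (0.10 to 0.52). The other 7 factors differed in sign between clusters.

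**Figure D5:**
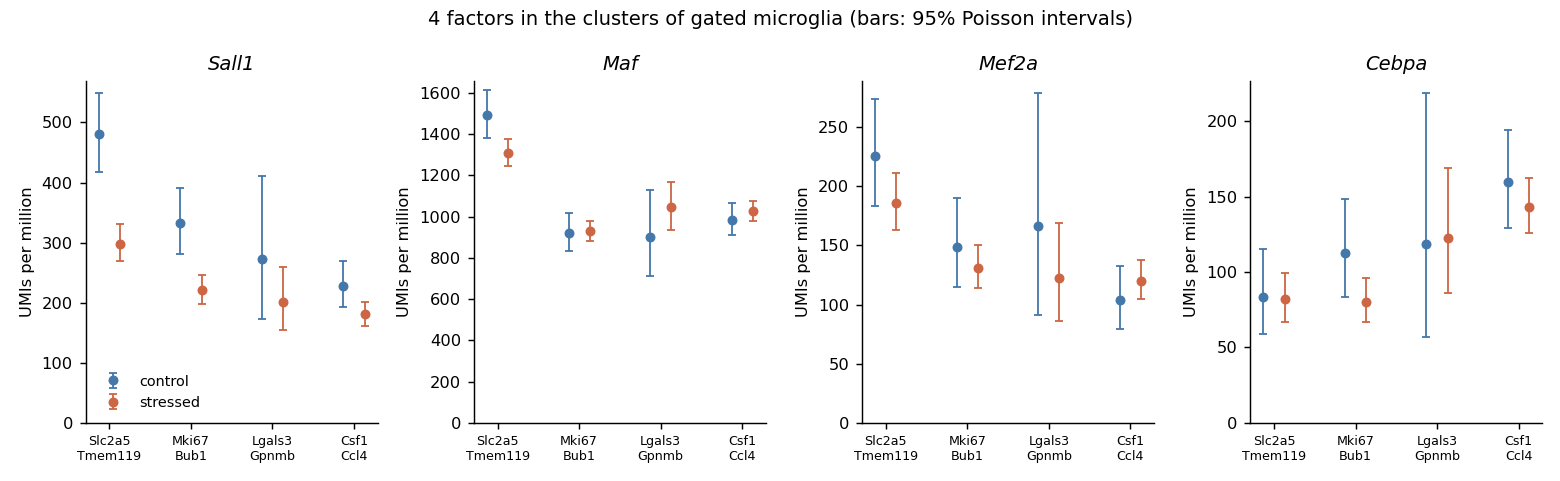
Level of Sall1, Maf, Mef2a and Cebpa in CPM (y axis, linear, from 0) in the 4 main clusters of gated microglia (x axis, named by leading genes) of the control and stressed libraries, with 95% Poisson intervals. Sall1, Maf and Mef2a are highest in the Slc2a5 and Tmem119 cluster and Cebpa in the Csf1 and Ccl4 cluster, and Sall1 is lower in the stressed library in all 4.

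Relatives of the 9 factors were taken from 7 lists of 57 other transcription factors, of which 28 had enough counts to test. Between microglia and border-associated macrophages 4 were higher in microglia and 3 lower, beside 4.81% and 5.89% of all genes. Bhlhe41, a factor of resident macrophages, was 1.15 higher in microglia on the log2 scale (145 and 199 CPM against 67.6 and 74.5 CPM, edgeR adjusted p = 0.0138). Ikzf1 and Batf3 were higher too. Klf2, an anti-inflammatory zinc finger factor, was 2.20 lower in microglia on the log2 scale (edgeR adjusted p = 7.46e-05), with Klf6 and Cebpd.

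Between microglia and monocytes and granulocytes 1 of the 28 was higher in microglia, Bhlhe41, and 8 were lower, beside 4.44% and 4.35% of all genes. They were Irf7 and Irf5, Cebpd, the zinc finger factors Klf2, Klf4, Klf6 and Klf13, and Id2, which restrains E proteins. Irf7 had 2.50 and 0.599 CPM in microglia against 73.4 and 150 CPM in monocytes and granulocytes, the latter from 2 and 9 UMIs. Klf4 had 3 UMIs in monocytes and granulocytes of each library. Irf7 and Klf4 reached the mean of 20 CPM needed for testing only through that class, so the filter favoured their call as lower in microglia. Cebpd thus went with Cebpb, its family member, in both comparisons. Of the 4 ETS relatives tested, Fli1, Elk3, Elf1 and Etv6, 0 differed in either comparison by edgeR (1 and 2 of the 4 had an unadjusted p under 0.05, and the smallest adjusted p was 0.121 and 0.19).

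Of 10 textbook targets of these factors that were tested, 4 were higher in microglia than in border-associated macrophages (Csf3r, Cst3, Itgam and Itgb2) and 1 was lower, Cybb, the phagocyte oxidase subunit, beside 4.81% and 5.89% of all genes. Csf1r, a PU.1 target, measured 1212 and 957 CPM in microglia, 686 and 760 CPM in border-associated macrophages and 220 and 167 CPM in monocytes and granulocytes, and the last difference passed (log2 difference 2.63, edgeR adjusted p = 0.000135). Cybb measured 2.50 and 3.59 CPM in microglia and 918 and 650 CPM in monocytes and granulocytes. Between the libraries, 15 of the 57 relatives had at least 50 CPM in microglia and 1 of them moved past 1.5-fold: Id2, from 68.1 to 42.1 CPM (log2 ratio -0.69). Of 8 targets measured 0 did.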

How the data were processed

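The authors deposited matrices of unnormalized UMI counts, written by software version 3.0.0 per the file headers. Per the submitters' processing notes, which give no roles, the tools were Seurat 2.4, STAR and Cell Ranger 3.0.0 and the build was GRCm38.p5 (mm10). Both files hold called cells only. The 9 genes, the lists and the comparisons were chosen with earlier results of these data known.

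Barcodes under 500 genes or over 10% mitochondrial UMIs were dropped, which left 1068 control and 1407 stressed cells. The gate's 3 markers and margin of 2 were set after seeing the data. Clusters were made with scanpy 1.11.5 (2000 variable genes, 30 components, Leiden resolution 0.5) without the 9 genes, Xist, Tsix and Y-linked genes. Scrublet's own threshold marked 2 and 3 cells, so doublets were kept, and an alternative removed the highest 3.5% of scores (37 and 49 cells). UMI counts were summed by class and library. Ratios have exact conditional and shares exact Clopper-Pearson 95% intervals, for counting error only, and 0 UMIs allow up to 3 counts per library. Past 1.5-fold was counted where a gene reached 50 CPM in either library.

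Class tests used edgeR 4.0.16 (R 4.3.3) with TMM factors on genes with a mean of at least 20 CPM over the sums, at an adjusted p under 0.05. Its small-count fit was chosen after the legacy fit estimated no finite prior, and the legacy fit is an alternative. On simulated counts for microglia against border-associated macrophages (5535 genes), 126 of 200 genes changed 4-fold were recovered, 0 in the wrong direction, and 0 of 5335 unchanged genes were called. All simulated classes shared a common mean profile and a fixed spread, and smaller folds were not simulated. The simulation therefore does not cover the smaller differences of Cebpb, Maf and Mef2c. The named genes were the 9, up to 4 per list with the largest differences, and for each of the 9 the 3 most alike by Pearson r of log2(CPM + 10) over the 8 sums. A few other genes were named for their counts after their values were seen. Positions are RefSeq's on GRCm38.p6 and GENCODE M21's on GRCm38, in which 30934 of 31053 identifiers were found. The values of 1 further listed gene are not reported here.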

Additional observations from a re-analysis of the deposited data

Results flagged for a closer look

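Irf8 went opposite ways in the libraries when microglia were set against monocytes and granulocytes. The log2 ratio was -1.59 in the control (interval -2.36 to -0.70) and 3.27 in the stressed library (interval 0.78 to 8.57), and the difference between the libraries was not tested. It rests on 14 and 1 UMIs in 15 and 14 cells, and 9 of the 14 came from 1 cell. The 2 sets of cells also differed in the makeup of their markers. S100a8 and S100a9 stood at 28901 and 25963 CPM in the control and at 8195 and 583 CPM in the stressed library. Ngp and Camp, granule genes of immature granulocytes, stood at 7161 and 8887 CPM over all 15 control cells and at 0 in the stressed library. The control UMIs of each came from 2 of the 15 cells. Their part in the Irf8 difference was not tested.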

How the results depend on the processing

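In microglia, the count of factors past 1.5-fold between the libraries was 0 and rose to 1 with a stricter gate and at the lower fold of 0.32 on the log2 scale, each time Sall1. Between cell classes, with clusters in place of the gate 1 factor differed between microglia and border-associated macrophages and 1 between microglia and monocytes and granulocytes. With only the classes compared in the fit, 0 factors differed between microglia and monocytes and granulocytes, and 0 between border-associated macrophages and monocytes and granulocytes, where 25 and 0 of all genes passed. Between microglia and border-associated macrophages such a fit, which also leaves 1 residual degree of freedom per gene, called 5 factors and 926 of 5011 genes. All 9 factors differed between microglia and neural cells under all 8 alternatives. Differences that changed sign were near 0 or rested on few UMIs. Against monocytes and granulocytes, microglia had log2 differences of -0.032 for Spi1, -0.17 for Irf8 and -0.10 for Mef2a with clusters, and for Irf8 -0.10 without TMM factors, -0.0048 without the highest doublet scores and -0.33 with DESeq2. Border-associated macrophages had -0.070 for Spi1 without TMM factors, -0.0024 with DESeq2 and -0.10 with clusters, where Runx1 was at -0.33, Sall1 at -0.56 and Mef2a at -0.59, and Irf8 was at 0.25 with a stricter gate. The edgeR legacy fit, added after seeing the data, called 5, 5, 4 and 9 factors in the 4 comparisons. No paired analysis was possible because each condition is 1 library; the class comparisons keep the library as a term. Depth limits the 29 monocytes and granulocytes most, where 0 UMIs still allow 110 and 50.0 CPM.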

Other observations

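The 4 control and 4 stressed cells that carried vascular markers had UMIs of the MEF2 factors alone among the 9. Mef2c was at 272 and 346 CPM (5 and 12 UMIs) and Mef2a at 272 and 115 CPM (5 and 4 UMIs), while Spi1, Irf8, Runx1, Cebpa, Cebpb, Maf and Sall1 had 0 UMIs in both libraries. The 147 control and 100 stressed cells that the gate left unassigned carried all 9 factors, with Spi1 at 353 and 428 CPM, Maf at 804 and 748 CPM and Sall1 at 131 and 99.0 CPM. Their Sall1 level lay between those of microglia and border-associated macrophages in both libraries.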
